A study of Mus musculus with 18 samples.

Results

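The mitochondrial genome is a small circular DNA that cells hold in many copies, and its genes were taken here as the genes whose symbol in the deposited expression table begins with mt-. The rule found 37 genes of the 53715 with read counts. All 37 have values in TPM, a unit per gene length with 1 sum for all libraries, as do 28252 genes in all. Their identifiers matched the 37 genes that the GENCODE M21 annotation (build GRCm38, also called mm10) places on chrM. Of these, 13 encode proteins, 2 encode ribosomal RNAs (rRNA) and 22 encode transfer RNAs (tRNA). The annotation has 28 of the genes on the plus strand and 9 on the minus strand.

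Bulk RNA sequencing was done on 18 libraries of mouse oocytes from a C57Bl/6j x CBA/J cross, all labelled in vivo, with 3 libraries in each of 6 groups. The oocytes were at the primordial follicle stage, the primary follicle stage or MII (arrested in metaphase II of meiosis), each from sham and from NTY, a treatment name that the labels do not explain. Age and the number of animals or cells behind a library are not given in the sources used here. By the labelled protocol, microdissected cells were captured with a laser, their RNA was pooled by stage, amplified with an Ovation system and made into TruSeq RNA Access libraries, whereas collected oocytes went through a Picopure extraction and Smart-seq II. The labels do not say library by library which route was used, and the 12 libraries of the primordial and primary stages were treated as microdissected. Stage and library method therefore cannot be told apart between the 6 MII libraries and the other 12, and no test was made across them. No label says that the replicates came from separate animals, so p-values measure the spread between these libraries, which may be technical. The library codes of primary NTY replicates 2 and 3 differ only in a last digit, and whether both came from the same material is not given in the sources used here. They were counted as 2 libraries, and with them summed the group has 2.

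The mitochondrial genes are transcribed from both strands as long precursors, and enzymes cut the tRNAs out of the precursors and so free the rRNAs and mRNAs between them. The 13 proteins are core subunits of respiratory chain complexes I, III and IV and of the ATP synthase (complex V), and all other proteins of mitochondria, including those that copy, transcribe and process mitochondrial DNA and RNA, are encoded in the nucleus. Mouse oocytes gain mitochondria as they grow, and the MII oocyte is known for a large mitochondrial content. Pieces of mitochondrial DNA have also been copied into nuclear chromosomes, where they are annotated as pseudogenes.

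Nuclear copies bear on the levels, because a read that matches 2 places can be dropped or split. Each mitochondrial gene was compared with the nuclear transcripts of the annotation. The copy of mt-Co2 (subunit 2 of cytochrome c oxidase, complex IV), the pseudogene Gm28661 on the minus strand of chromosome 1 (chr1:24614885-24615565), had the same 681 bases as the first 681 of the 684 bases of the gene, with 0 mismatches. Its first 60 bases are shown with those of the gene (chrM:7013-7072, plus strand) because a read from there matches both places, with the capitals marking identical bases.
mt-Co2: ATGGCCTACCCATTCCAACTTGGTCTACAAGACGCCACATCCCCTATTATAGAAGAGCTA
Gm28661: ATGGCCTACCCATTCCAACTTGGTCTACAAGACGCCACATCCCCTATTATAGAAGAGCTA
Gm28661 is one of a run of pseudogenes on chromosome 1 that holds mt-Co1 to mt-Nd4 in the order of the mitochondrial genome. Gm10925 had the same 678 bases as mt-Atp6 (ATP synthase subunit), Gm28437 the same 783 as mt-Co3 (subunit 3 of complex IV) and Gm10222 the same 294 as mt-Nd4l (complex I subunit). Gm28439 had the same 876 bases as the first part of mt-Nd4, a complex I gene of 1378 bases. Gm28438 differed from mt-Nd3 (complex I) by 1 base over 345 bases, the substitution T3C counted from 1 at the start of the gene (chrM:9459-9486 is shown, with the changed base in capitals).
mt-Nd3: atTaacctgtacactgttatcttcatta
Gm28438: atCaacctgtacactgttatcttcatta
Gm29216 differed from the last part of mt-Co1 (subunit 1 of complex IV) by 1 base over 483 bases, A1066T (chrM:6390-6418).
mt-Co1: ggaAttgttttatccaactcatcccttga
Gm29216: ggaTttgttttatccaactcatcccttga
The 2 ATP synthase genes share sequence with each other as well. The last 43 bases of mt-Atp8 are the first 43 of mt-Atp6 (chrM:7927-7969, capitals, shown within chrM:7907-7989, plus strand), so a read there belongs to both genes.
mt-Atp8 and mt-Atp6: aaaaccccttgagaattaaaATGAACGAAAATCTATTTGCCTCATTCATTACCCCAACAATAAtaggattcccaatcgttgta

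In MII oocytes most of the mitochondrial reads lay on mRNA genes. The 37 genes took 8.15, 1.73 and 2.06% of all gene counts in the 3 sham libraries and 3.04, 3.19 and 6.49% in the 3 NTY libraries. Sham replicate 1 and NTY replicate 3 stood above the other 4 libraries. The exact 95% binomial interval reached at most 0.468% of a share to either side in MII and at most 1.04% in the microdissected libraries, and such intervals leave out all error but that of counting, as copies made by amplification count as reads of their own. Of the mitochondrial counts in MII, 88.4 to 95.1% lay on the mRNA genes, 3.27 to 9.12% on the rRNA genes and 1.61 to 2.74% on the tRNA genes.

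mt-Cytb (cytochrome b, the mitochondrial subunit of complex III) held the most counts of the mitochondrial genes. Its level was 38339, 8056 and 10589 CPM (counts scaled to the same total in every library) in sham and 14682, 13386 and 26963 CPM in NTY, and it ranked 1 to 5 among all genes of a library. It made up 46.9 to 56.6% of the mitochondrial mRNA counts, ahead of 19.8 to 28.7% for the 7 complex I genes together, 14.0 to 22.8% for the 2 ATP synthase genes and 4.65 to 8.002% for the 3 complex IV genes. These shares are of counts and so favour long genes.

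Per length, in TPM, the 13 mRNA genes spanned more than 3 orders of magnitude in MII oocytes. Over the 6 libraries the median was 37363 TPM for mt-Atp8, 32124 for mt-Cytb, 10322 for mt-Atp6 and 8348 for mt-Nd1. The next genes were mt-Co1 (3653), mt-Nd2 (3144), mt-Nd6 (2092), mt-Nd4 (2008) and mt-Nd5 (1870.3). Neighbours among these 9 genes had ranges that overlapped over the libraries, although mt-Cytb was above mt-Atp6, mt-Nd1 above mt-Co1 and mt-Nd2 above mt-Nd6 in 6 of 6 libraries. A gap followed, since the ranges of mt-Nd5 and of the tenth gene, mt-Nd3, did not overlap. The last 4 genes were mt-Nd3 at 83.5 TPM, mt-Nd4l at 56.1, mt-Co2 at 14.2 and mt-Co3 at 14.1, and the last pair had ranges that overlapped. mt-Atp8 and mt-Atp6 had like counts, with medians of 26231 and 24198.5, on 204 and 681 bases. The place of mt-Atp8 above mt-Atp6 in TPM therefore goes with its shorter length. How reads in their shared bases were counted is not given in the sources used here.

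The 4 lowest mRNA genes were among the 5 with a near-complete nuclear copy. For each gene the share of its 50-base windows that occur without mismatch in a nuclear transcript was counted. It was 100% for mt-Co2, 99.9% for mt-Co3, 98.8% for mt-Nd4l, 98.0% for mt-Nd3 and 99.5% for mt-Atp6. Between these and the genes with few shared windows were mt-Nd4 (62.2%) and mt-Co1 (51.1%), which stood at 2008 and 3653 TPM. The 8 mRNA and rRNA genes with under 10% of shared windows had medians of 472 to 37363 TPM. The highest of them, mt-Atp8, lies between mt-Co2 and mt-Atp6, whose copies Gm28661 and Gm10925 are neighbours in the nuclear run. The stretch between those copies is in neither of them, sequence outside annotated transcripts was not searched, and 43 shared bases are fewer than a window. A nuclear copy of mt-Atp8 could therefore have been missed, and its place among the 8 is uncertain. mt-Atp6 was the exception among the 5, at 10322 TPM. Its counts followed those of mt-Atp8, with which it shares the 43 bases shown above: mt-Atp8 differed from mt-Atp6 by -1.20% to 12% in the 6 MII libraries, and the 2 genes had equal counts in 6 of the 11 microdissected libraries with any.

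**Figure D1:**
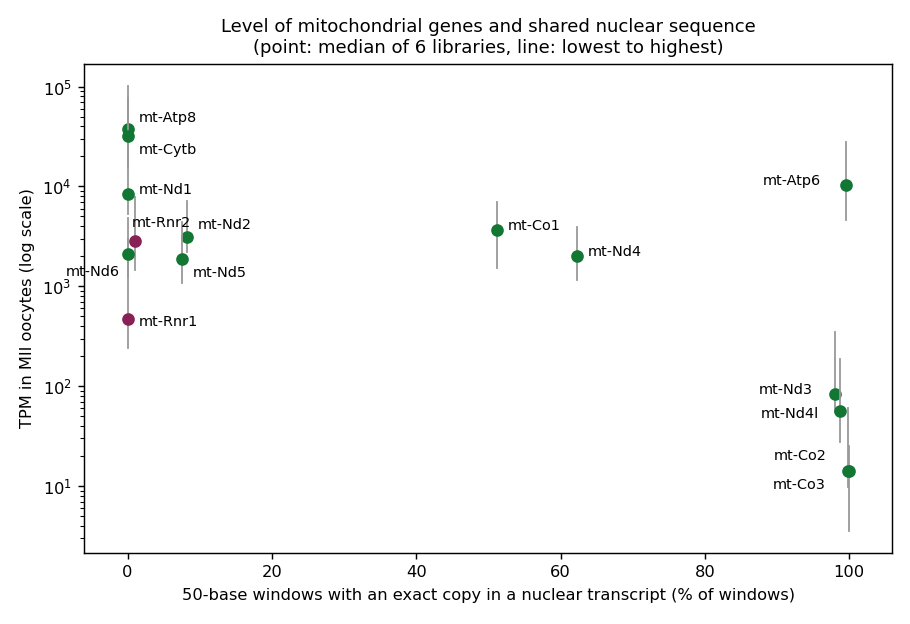
Median TPM in the 6 MII libraries (log axis) of the 13 mRNA genes (green) and 2 rRNA genes (purple) against the percentage of their 50-base windows that occur in a nuclear transcript. Lines run from the lowest to the highest library. 4 of the 5 genes over 95% lie at or below 83.5 TPM, and mt-Atp6 lies at 10322.

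The files also give counts to the nuclear copies. Gm10925, the copy of mt-Atp6, had 5601, 18 and 22 counts in sham and 35, 256 and 109 in NTY in MII oocytes, against 80749, 11045 and 12174 and 26850, 21547 and 44849 for mt-Atp6. Sham replicate 1 stood far above the rest for the copy. Gm10222, the copy of mt-Nd4l, had 10, 0 and 0 counts in sham and 5, 3 and 190 in NTY, against 216, 33 and 27 and 48, 67 and 189 for the gene, so that in NTY replicate 3 copy and gene stood level. Gm28439 had 183 counts in the same library, where mt-Nd4 had 18413. No other copy exceeded 100 counts in an MII library. In the microdissected libraries Gm28661 had 5 counts in primary NTY replicate 1, where mt-Co2 had 0, and all other copies had 0. How reads with several matches were treated is not given in the sources used here, and its part in the low levels of mt-Co2, mt-Co3, mt-Nd3 and mt-Nd4l was not tested. The levels of these 4 genes and of mt-Atp6 are therefore uncertain, as is that of mt-Atp8, which shares bases with mt-Atp6.

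Among the tRNA genes of MII oocytes, mt-Tl1 (a leucine tRNA gene just after mt-Rnr2) had the most counts in 6 of 6 libraries, at 13071, 5421 and 6812 TPM in sham and 3944, 11530.2 and 17438 in NTY. It was followed by mt-Tm, mt-Tq and mt-Ti, the methionine, glutamine and isoleucine tRNA genes between mt-Nd1 and mt-Nd2, with medians of 4854, 3335 and 1834 TPM. Along the 5 neighbouring genes mt-Tw, mt-Ta, mt-Tn, mt-Tc and mt-Ty the counts fell at every step in 5 of 6 libraries, and the medians ran from 1165 to 509 TPM. At the low end, mt-Tf and mt-Tv, which flank mt-Rnr1, had medians of 79.1 and 117 TPM, and mt-Ts1 reached at most 10.3 TPM. mt-Td had 0 counts in all 18 libraries, which allows a level of up to 0.00893 CPM over their summed depth, in reads that could be counted. That depth pools both library methods, and within a single MII library the limit is 0.301 to 0.347 CPM. mt-Ts1 and mt-Td lie between mt-Co1 and mt-Co2, whose copies Gm29216 and Gm28661 are neighbours in the nuclear run described above. The stretch between those copies is in neither of them, and sequence outside annotated transcripts was not searched. Reads dropped for matching several places could therefore hide a higher level of both tRNA genes, which was not tested. The same holds for mt-Tk, mt-Tg and mt-Tr, which also lie between genes with copies in that run. Their medians were 223, 198 and 236 TPM. Of the tRNA genes 8 lie on the minus strand, as mt-Nd6 does among the mRNA genes, and whether the counting used the strand is not given in the sources used here, so reads from a gene and from RNA antisense to it cannot be told apart. The tRNA genes are 59 to 75 bases long and adjoin other genes. Reads of uncut precursors or of neighbouring RNAs that run into them cannot be told apart from tRNA reads. These TPM are therefore not levels of mature tRNA alone.

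In the oocytes of primordial and primary follicles the mitochondrial reads were nearly all rRNA. The 37 genes took 0.363, 0.137 and 0.169% of counts in primordial sham, 0.465, 0.343 and 0.264% in primordial NTY, 0.304, 0.235 and 0.462% in primary sham and 0.423, 0.257 and 0.253% in primary NTY. Of these, 96.8 to 99.7% lay on the 2 rRNA genes. mt-Rnr2, the large subunit rRNA, took 86.6 to 97.8% by itself and ranked between 9 and 108 among all genes of a library.

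The mRNA genes were sparse in these libraries, at 9.57 to 146 CPM in sum, against 15819 to 76937 CPM in MII. For the 2 rRNA genes the sums were 1351 to 4583 and 996 to 5916 CPM, which overlapped. mt-Co2, mt-Co3 and mt-Nd3 had 0 counts in all 12 libraries, and mt-Nd4l had 1 count in 1 library (0.0427 CPM). The 22 tRNA genes together had 107 counts in the 12 libraries, and 13 of them had 0. Over these 12 libraries a count of 0 allows a level of up to 0.0107 CPM in reads that could be counted. For genes with a nuclear copy, and for those between genes with copies in the nuclear run, dropped reads could hide a higher level. In all, 16 of the 37 genes had 0 counts in the 12 libraries, against 1 in MII.

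**Figure D2:**
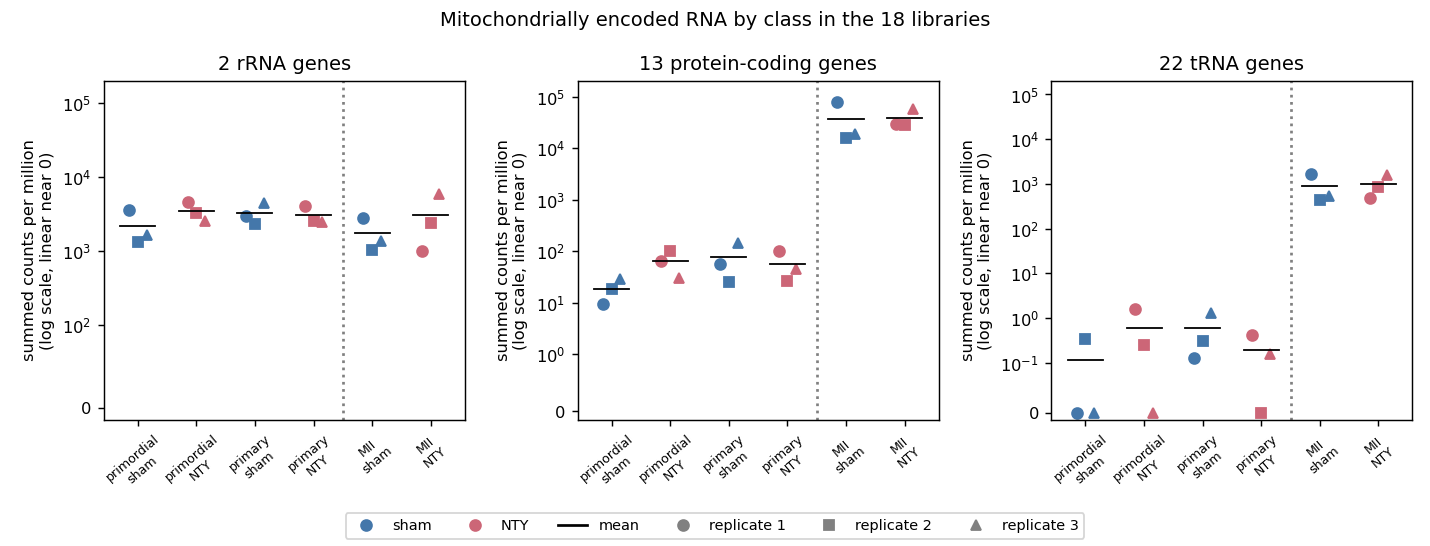
Summed CPM of the rRNA, protein-coding and tRNA genes of the mitochondrial genome in each of the 18 libraries, by group, on log axes that are linear near 0, with each group's mean as a line. The dotted line parts the microdissected libraries from the MII libraries, which were taken as made with another method. The rRNA sums overlap across this line and the other classes do not.

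The mRNA genes also shared out their counts differently in the microdissected libraries, by description, since the kit, as assigned here, and the stage change together. There the complex I genes held 45.8 to 77.0% of the mitochondrial mRNA counts and mt-Cytb 9.56 to 24.8%, whereas complex IV, with counts on mt-Co1 alone, held 7.63 to 28.6%. Per length, mt-Atp8, mt-Nd2, mt-Nd5, mt-Cytb, mt-Co1 and mt-Nd6 had medians of 15.4 to 30.4 TPM over the 12 libraries, with ranges that overlapped. mt-Nd6, the mRNA gene of the minus strand, held 31.7% of the mRNA counts in primordial sham replicate 1, the library with the fewest mRNA counts (145), and 0.358% to 8.96% in the other 11. In that library mt-Nd1, mt-Atp8, mt-Atp6 and mt-Nd4 had 0 counts, so its make-up rests on 5 genes.

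The markers of other cells differed between these sets of libraries too. The summed level of 14 granulosa cell markers was 779 to 5009.8 CPM in the microdissected libraries and 98.5 to 188 CPM in MII. Of the 14, 4 were at 0 in all MII libraries, namely Foxl2, Fst, Amhr2 and Wt1. Cyp19a1 and Esr2 went against the sum, at 28.6 to 68.7 and 35.6 to 74.8 CPM in MII. In the microdissected libraries they reached at most 0.299 and 9.35 CPM. For 6 stromal markers the sum was 1376 to 17909.9 and 0 to 2.91 CPM, with 3 of the 6 at 0 in MII, and for 8 markers of blood, immune and endothelial cells it was 0.266 to 60.3 and 89.8 to 141 CPM, with 5 of the 8 at 0 in MII. Pecam1 (an adhesion molecule of endothelial cells) made up 94.3 to 100% of this last sum in MII, where the other 7 genes reached at most 6.64 CPM. The 15 genes of oocyte growth summed to 4.48 to 823 CPM in the microdissected libraries and 7519 to 12252 CPM in MII, and 8 early oocyte markers to 809 to 3491 and 1281 to 1719 CPM. The lowest oocyte growth sum, 4.48 CPM, was in primordial NTY replicate 3. Foxo3, which is not particular to oocytes, made up 48.9 to 99.9% of the early oocyte sum in the microdissected libraries, and in primordial NTY replicate 3 the other 7 genes summed to 2.18 CPM, the lowest of the 12 libraries. In bulk libraries, fewer cells of a type and less RNA per cell cannot be told apart, and the part of these markers in the mitochondrial levels was not tested. Total counts ranged from 15149564 to 29205503 in the microdissected libraries and from 8652089 to 9978830 in MII. Genes with at least 1 count numbered 6147 to 9852 in primordial sham and 6524 to 12461 in primordial NTY. In primary follicles they numbered 10565 to 13755 in sham and 7474 to 10255 in NTY. In MII they numbered 15442 to 18239 in sham and 12782 to 13608 in NTY. The part of these numbers in the levels and in the shares of genes without overlap was not tested.

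The first comparison asked whether NTY changed the mitochondrial genes in oocytes from primordial follicles, and no gene passed the test although all those tested stood higher on average in NTY. mt-Nd2 (complex I) had 1.25, 1.92 and 2.66 CPM in the sham libraries and 8.82, 13.6 and 11.1 CPM in the NTY libraries, so the groups did not overlap. mt-Nd5 (complex I) had 0.858, 5.96 and 8.35 CPM and 14.3, 28.3 and 9.14 CPM, which did not overlap either. mt-Rnr2 had 3556, 1296 and 1593 CPM in sham and 4422, 3065 and 2562 CPM in NTY, and its groups overlapped, with sham replicate 1 high. The summed mRNA genes had 9.57, 18.2 and 28.2 CPM in sham and 63.9, 99.9 and 30.6 CPM in NTY, where the highest sham and the lowest NTY library lay close together.

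These counts were tested with edgeR's quasi-likelihood test over the 12 microdissected libraries, with Benjamini-Hochberg adjustment over all genes and an adjusted p under 0.05 as the threshold. Only 11 of the 37 genes had enough counts to be tested, namely both rRNA genes and the 9 mRNA genes other than mt-Co2, mt-Co3, mt-Nd3 and mt-Nd4l. A gene that enters through the group in which it is high tends to differ, so these 11 do not stand for all 37. Genes cut from the same precursor are not independent of each other, nor are mt-Atp8 and mt-Atp6, which share bases. In primordial follicles 0 of the 11 were called and 0 had an unadjusted p under 0.05, and among all 10522 genes tested 0.00950% were called. The spread between replicates was too large for the test to call changes of the sizes seen here, so a count of 0 does not show that levels were alike. DESeq2, which called 11.5% of all genes, called 0 of the 11, and limma on log2(TPM + 1) called 0. By DESeq2 1 of the 11 had an unadjusted p under 0.05, against 2310 of all 10522 genes. The log2 fold change of NTY over sham was positive for 11 of 11, with a median of 1.60 against 0.12 over all genes. It was highest for mt-Nd2, 2.68 (SE 2.86, adjusted p = 0.817, edgeR), and lowest for mt-Rnr2, 0.80 (SE 0.83, adjusted p = 0.811, edgeR). The groups did not overlap, with NTY higher, for 2 of the 11 genes and for 5.19% of all genes, and with NTY lower for 0 of the 11 and 2.78% of all genes.

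For the other genes followed by role, the log2 fold change was 1.27 (SE 2.75) for mt-Co1, 1.69 (SE 2.77) for mt-Cytb, 1.60 (SE 2.54) for mt-Atp6, 2.26 (SE 2.70) for mt-Nd1 and 1.28 (SE 2.60) for mt-Nd6. Each of these errors was larger than the change. Without primordial NTY replicate 3, the library with the least oocyte growth RNA, the median over the 11 genes was 1.77 and 0 were called. The mean log2 share of counts on the 37 genes differed by 0.77 between NTY and sham, against a pooled SD of 0.598 on the same scale, and the difference was 1.78 for the protein-coding genes alone. For the 37 genes it was 0.49 without sham replicate 2 and 1.19 without sham replicate 1. In the same libraries the granulosa sum was 779 to 3309 CPM in sham and 2095 to 5009.8 CPM in NTY, the stromal sum 1376 to 8092 and 2809 to 12988 CPM, and the oocyte growth sum 68.3 to 823 and 4.48 to 257 CPM, and their part in the result was not tested.

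**Figure D3:**
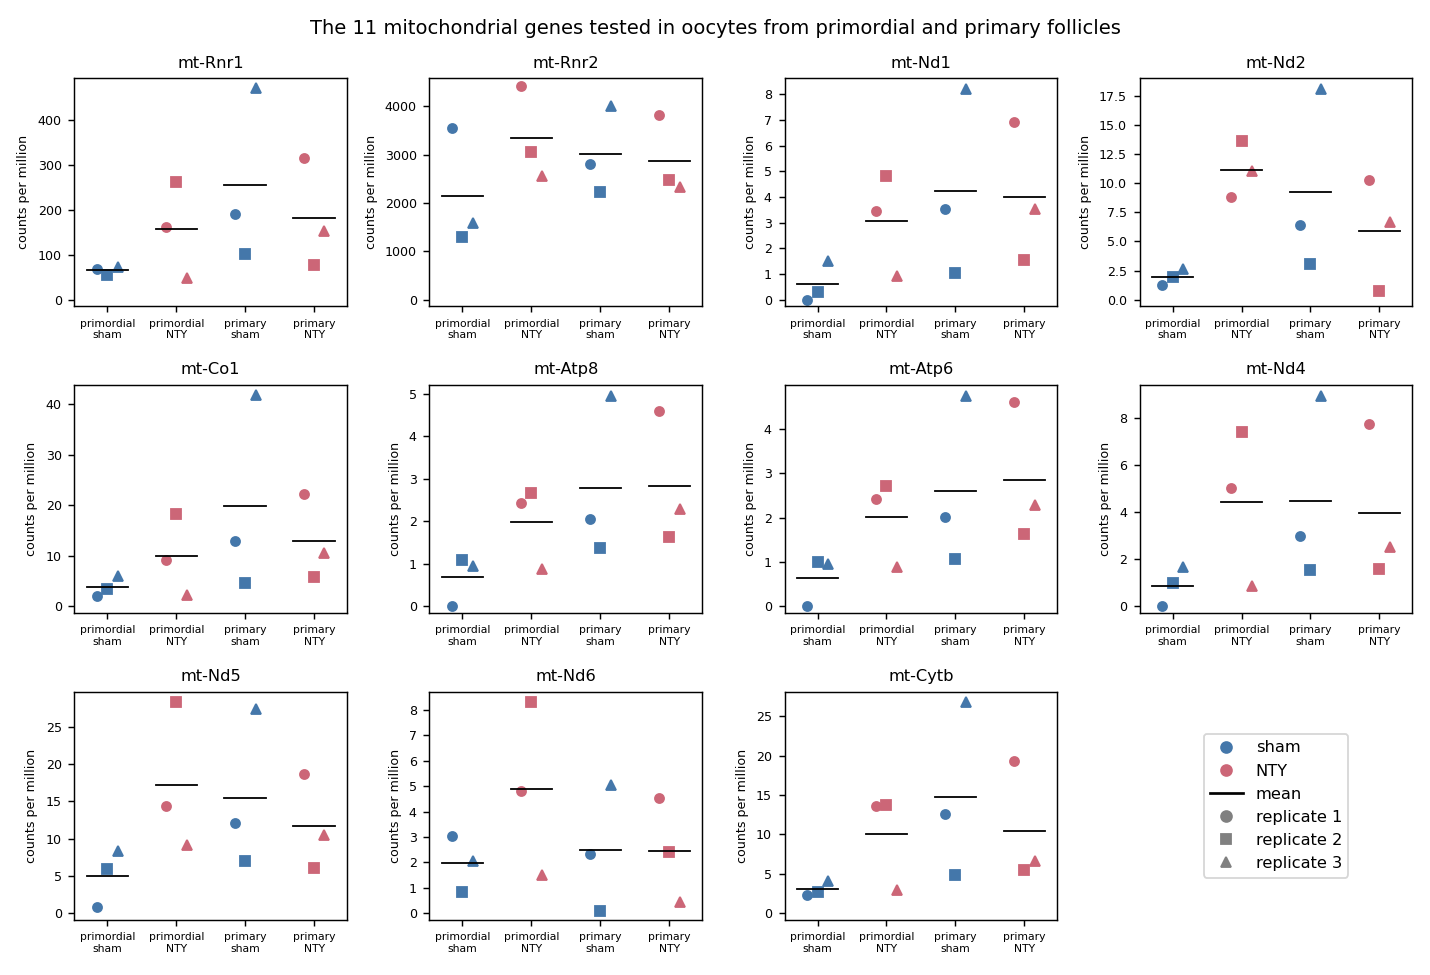
CPM of the 11 tested mitochondrial genes in the 12 microdissected libraries, by stage and treatment. Each point is a library, its shape the replicate number, and the line the group mean. In primordial follicles mt-Nd2 and mt-Nd5 are higher in every NTY library than in every sham library, and in primary follicles the groups of all 11 genes overlap.

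In oocytes from primary follicles the NTY and sham libraries overlapped for all 11 genes, in a comparison in which 1.24% of all genes had NTY higher and 13.8% had NTY lower without overlap. mt-Rnr2 had 2797, 2220.5 and 4006 CPM in sham and 3817, 2469 and 2336 CPM in NTY. mt-Cytb had 12.5, 4.87 and 26.8 CPM and 19.3, 5.50 and 6.60 CPM. For both genes sham replicate 3 and NTY replicate 1 were the highest of their groups, as they were for mt-Co1, with 13.04, 4.70 and 41.8 CPM in sham and 22.2, 5.80 and 10.6 CPM in NTY. By edgeR 0 of the 11 genes were called, 0% of all genes were called, and 0 of the 11 had an unadjusted p under 0.05. DESeq2 called 6.63% of all genes and 0 of the 11, and limma called 0.

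The fold changes in primary follicles were small and of both signs, positive for 9 of the 11 genes and negative for 2, with a median of 0.35 against -0.096 over all genes. The highest was 0.66 (SE 2.49) for mt-Atp6 and the lowest -0.15 (SE 2.69) for mt-Nd2. The median moved with single libraries and with the scale. Without sham replicates 1, 2 and 3 in turn it was 0.12, -0.0046 and 0.97, and without NTY replicates 1, 2 and 3 it was -0.34, 0.50 and 0.56. With NTY replicates 2 and 3 summed it was 0.54. Over the 15 genes tested by limma on log2(TPM + 1) it was -0.21, against -0.97 over all genes. The mean log2 share of counts differed by -0.087, less than the pooled SD of 0.459. The granulosa sum was 1882 to 3526 CPM in sham and 1042 to 3205 CPM in NTY, the stromal sum 2323 to 5190.1 and 2289.7 to 17909.9 CPM, and the oocyte growth sum 323 to 367 and 41.9 to 349 CPM, and their part was not tested. Sham libraries had 10565 to 13755 genes with a count and NTY libraries 7474 to 10255, and the part of this was not tested.

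The NTY effect in primary follicles minus that in primordial follicles was negative for 11 of 11 genes, and the sham and NTY libraries of both comparisons enter it. Its median was -1.33 against -0.56 over all genes. It was lowest for mt-Nd2, -2.83 (SE 3.88), and highest for mt-Rnr2, -0.35 (SE 1.17). By edgeR 0 of the 11 were called, with 0 unadjusted p under 0.05, against 0.00950% of all genes. By DESeq2 0 were called, against 11.6% of all genes, and by limma 0. Without primary sham replicate 3 the median was -0.51.

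In MII oocytes, where 35 of the 37 genes had enough counts to be tested (all but mt-Td and mt-Ts1), NTY and sham overlapped for every gene. mt-Rnr1, the small subunit rRNA, had 185, 143 and 176 CPM in sham and 90.3, 351 and 1103 CPM in NTY. NTY replicates 2 and 3 were above all sham libraries and NTY replicate 1 below them. Its log2 fold change, the highest of the 35, was 1.70 (SE 0.76, unadjusted p = 0.0523, adjusted p = 1.00, edgeR), and 0.31 without NTY replicate 3. The lowest was mt-Tm, -0.30 (SE 0.66, adjusted p = 1.00, edgeR), with 337, 70.0 and 118 CPM in sham and 75.8, 129 and 224 CPM in NTY.

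mt-Rnr2 had 2678, 899 and 1200.0 CPM in sham and 906, 2094 and 4813 CPM in NTY, a log2 fold change of 0.74 (SE 0.66). The mRNA genes followed by role sat nearer to 0, whereas some other mRNA genes came close to mt-Rnr2, well within its error. The log2 fold change was 0.44 (SE 0.66) for mt-Co1, 0.49 (SE 0.62) for mt-Nd6, 0.071 (SE 0.67) for mt-Nd1, -0.063 (SE 0.63) for mt-Cytb and -0.075 (SE 0.78) for mt-Atp6. By edgeR 0 of the 35 genes were called and 0 had an unadjusted p under 0.05, and 0% of the 12209 genes tested were called. DESeq2 called 0.238% of all genes and 0 of the 35, and limma called 0. By DESeq2 1 of the 35 had an unadjusted p under 0.05, against 393 of all 12209 genes. Among all genes 2.30% had NTY higher and 6.00% NTY lower without overlap. Sham libraries had 15442 to 18239 genes with a count and NTY libraries 12782 to 13608, and the part of this was not tested.

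The fold change was positive for 26 of the 35 genes and negative for 9, with a median of 0.44 against 0.0038 over all genes. It moved with single libraries. Without sham replicate 1, the library with the largest mitochondrial share, the median was 1.52 and all 35 were positive. In that fit 9 of the 35 had an unadjusted p under 0.05, against 355 of all 13001 genes tested. Without NTY replicate 3 the median was -0.44 and 4 were positive, and without sham replicates 2 and 3 in turn it was 0.083 and 0.11. The mean log2 share of counts differed by 0.37, less than the pooled SD of 0.968. Within the mitochondrial mRNA counts mt-Co1 made up 6.98%, 7.98% and 7.32% in NTY and 5.56%, 6.55% and 4.63% in sham, the gene of the 13 for which the groups did not overlap. The means were 7.43% ± 0.507 (SD, n = 3) and 5.58% ± 0.963 (SD, n = 3), and this difference, chosen after the values were seen, was not tested.

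**Figure D4:**
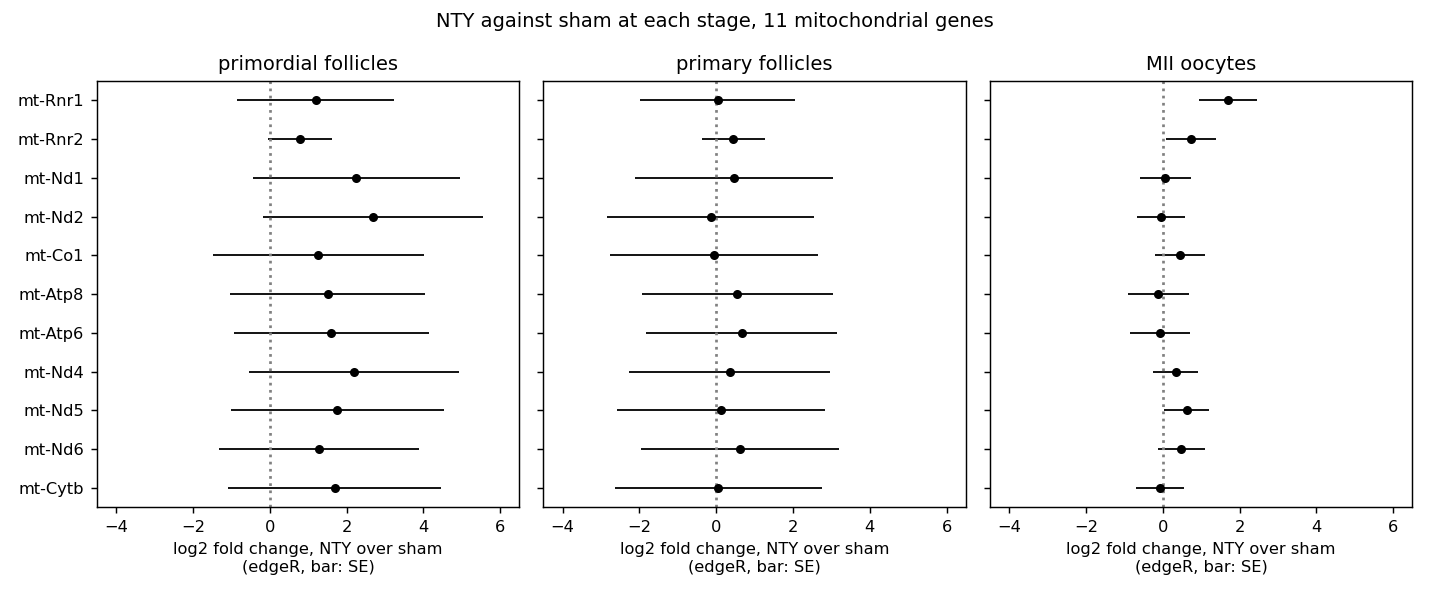
Log2 fold change of NTY over sham, with its standard error, for the 11 mitochondrial genes tested at all 3 stages (edgeR). In primordial follicles the 11 estimates are above 0, from 0.80 to 2.68, with errors of up to 2.86. In MII oocytes the errors are smaller, and mt-Rnr1 stands highest.

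Between stages taken as made with the same kit, primary against primordial follicles in the sham group, 0 of the 11 genes were called by edgeR. Among the 11, 0 had an unadjusted p under 0.05, and 0.00950% of all genes were called. DESeq2 called 7.31% of all genes and 0 of the 11, and limma called 0. The groups did not overlap, with primary follicles higher, for 5 of the 11, mt-Rnr1, mt-Nd2, mt-Atp8, mt-Atp6 and mt-Cytb, and for 14.5% of all genes. Of the 5, mt-Atp8 and mt-Atp6 share bases and had like counts, so they are not separate results. With primary follicles lower, they did not overlap for 0 of the 11 and 1.10% of all genes. mt-Rnr1 had 68.8, 55.5 and 72.6 CPM in primordial and 191, 101 and 471 CPM in primary sham libraries. For mt-Cytb the levels were 2.38, 2.64 and 4.08 CPM and 12.5, 4.87 and 26.8 CPM. The median fold change over the 11 genes was 1.58 against 0.29 over all genes, positive for 10 and negative for 1, and 0.91 without primary sham replicate 3. It was highest for mt-Nd1, 2.34 (SE 2.71), and lowest for mt-Nd6, -0.11 (SE 2.56), and for mt-Rnr2 it was 0.15 (SE 0.83). The mean log2 share of counts differed by 0.66, against a pooled SD of 0.629, and the difference was 1.80 for the protein-coding genes alone. For the 37 genes it was 1.07 without primordial sham replicate 1, 0.37 without primordial sham replicate 2 and 0.39 without primary sham replicate 3. In the same libraries the granulosa sum was 779 to 3309 CPM in primordial and 1882 to 3526 CPM in primary sham, with a median log2 fold change of 2.15 over the 12 of 14 granulosa markers tested. The stromal sum was 1376 to 8092 and 2323 to 5190.1 CPM and the oocyte growth sum 68.3 to 823 and 323 to 367 CPM, and the part of these markers in the result was not tested. Every primary sham library also had more genes with a count (10565 to 13755) than every primordial sham library (6147 to 9852). The part of this in the result was not tested either. This comparison and that of NTY with sham in primordial follicles share the 3 primordial sham libraries, so their like signs are not independent.

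In the NTY group the primary and primordial libraries overlapped for all 11 genes, where 2.51% of all genes had primary higher and 4.61% primary lower without overlap. By edgeR 0 of the 11 and 0% of all genes were called, with 0 unadjusted p under 0.05 among the 11, and DESeq2 called 10.7% of all genes and 0 of the 11, as did limma. The median fold change was 0.21 against 0.081 over all genes, positive for 7 and negative for 4. It ran from -1.03 (SE 2.72) for mt-Nd2 to 0.62 (SE 2.49) for mt-Atp8, and the median lay between -0.39 (without primary NTY replicate 1) and 0.48 (without primary NTY replicate 3) when each library was left out. The mean log2 share of counts differed by -0.20, less than the pooled SD of 0.415.

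The nuclear genes that transcribe, copy and process mitochondrial nucleic acids were followed from a list of 33. Those for transcription (6 genes, such as the polymerase Polrmt and the factor Tfb2m) summed to 0.129 to 23.5 CPM in the microdissected libraries and 68.7 to 92.4 CPM in MII, where Tfb2m made up 50.01 to 75.7 CPM. Those for replication (7 genes) summed to 2.66 to 692 CPM and 60.3 to 86.0 CPM. Polg, the mitochondrial DNA polymerase, made up more than 50% of this sum in 9 of the 12 microdissected libraries and 2.52 to 46.3% in primordial sham replicate 3, primary NTY replicate 1 and primary sham replicate 3, and it ranged from 0.633 to 692 CPM. Those for RNA processing and stability (20 genes) summed to 15.4 to 637 CPM and 519 to 713 CPM.

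Of the 33 genes, 18 were tested in the microdissected libraries and 25 in MII, and edgeR called 0 in each of the 6 comparisons. At an unadjusted p under 0.05 it found 2 of the 18 for NTY in primordial follicles, 2 in primary follicles and 0 of the 25 in MII. Among all genes tested the same threshold found 1145 of 10522, 858 of 10522 and 280 of 12209, so these counts are not particular to the list. DESeq2 called 3 of the 18 in primordial follicles, against 11.5% of all genes. There NTY was higher for Tfb1m (an rRNA methyltransferase) and Pnpt1 (polynucleotide phosphorylase) and lower for Fastkd5 (a mitochondrial RNA processing factor). In primary follicles it called 2, Pnpt1 and Fastkd5, both lower in NTY, against 6.63% of all genes, and in MII 0 of the 25. For the stage it called 0 of the 18 in sham, against 7.31% of all genes, and 1 in NTY, Pnpt1, lower in primary follicles, against 10.7%. For the difference of the NTY effect it called Pnpt1 again, with a negative value, against 11.6%. With so few genes tested, these counts lay near the shares over all genes. The median log2 fold change of the tested genes was 0.54, -1.13 and -0.20 for NTY in primordial follicles, primary follicles and MII by edgeR, against 0.12, -0.096 and 0.0038 over all genes.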

How the data were processed

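RNA was sequenced from 18 libraries of mouse oocytes, grouped by the stage and treatment in their labels. The authors deposited whole-number read counts per gene, not normalized, and TPM values. The submitters' processing notes name Trim Galore 0.4.1, TopHat2, featureCounts and mm10. Their order and settings, including strand, multiple matches and the annotation, are not given in the sources used here. Genes were joined on the Ensembl identifier without its version.

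The counts were tested with edgeR 4.0.16 in R 4.3.3, by quasi-likelihood (TMM, filterByExpr by group, robust), with Benjamini-Hochberg adjustment over all genes and a threshold of 0.05. The 12 microdissected libraries shared a fit and the 6 MII libraries were fitted alone. Alternatives were RLE normalization, DESeq2 1.42.0 without its filter on Cook distances, nuclear library sizes, other count filters, limma 3.58.1 on log2(TPM + 1) for genes of at least 1 TPM in 3 libraries, a replicate block, primary NTY replicates 2 and 3 summed, since their codes are alike and they may be the same material, and each library left out. The share of counts is a sum over the genes and was described without a test. Total counts set the depth, and 3 counts equal 0.103 to 0.347 CPM. The edgeR fit was tested on simulated data, where it recovered changes at low dispersion but not, at the common dispersion of these libraries, changes of the sizes seen here. Every simulated gene had the same dispersion, so the outcome does not set what the test can find for genes with less spread, such as mt-Rnr2.

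Coordinates and sequences come from GENCODE M21 (GRCm38). Nuclear copies were searched with blastn 2.17.0 in 141730 nuclear transcripts (at least 95% identity over 100 bases), and exact 50-base windows were counted in the same transcripts, so copies outside annotated transcripts were not searched. Genes with fold changes named were mt-Rnr2, mt-Co1, mt-Cytb, mt-Atp6, mt-Nd1 and mt-Nd6, for their roles, and the highest and lowest of each comparison. The mitochondrial genes and the lists of markers and nuclear factors were chosen with earlier results of these data known. No test was made between MII libraries and the others.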

Additional observations from a re-analysis of the deposited data

How the results depend on the processing

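No mitochondrial gene was called in any of 88 further fits, which used RLE normalization, DESeq2, library sizes from nuclear genes, a filter on any count, at least 10 counts in every library, limma on log2(TPM + 1), a replicate block, primary NTY replicates 2 and 3 summed, or each library left out. The lowest adjusted p in them was 0.158, by DESeq2 for NTY and mt-Nd2 in primordial follicles. The number of all genes called did move: DESeq2 called 1213, 698, 29, 769, 1127 and 1216 genes in the 6 comparisons in the order of NTY in primordial follicles, primary follicles and MII, stage in sham, stage in NTY and the difference, where edgeR called 1, 0, 0, 1, 0 and 1. Of the values compared across alternatives, 129 summaries and 570 fold changes kept their direction and call, 4 summaries moved and 50 fold changes, none of them called, turned in sign. The cause of these turns was not tested.

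On the log2 scale, the difference in mitochondrial share moved to 1.78 for NTY in primordial follicles and to 1.80 for the stage in sham, without the rRNA genes and with protein-coding genes only alike. RLE normalization moved the median of all genes from -0.096 to 0.19 for NTY in primary follicles and from 0.29 to -0.00046 for the stage in sham, and the median of the 11 mitochondrial genes from 0.35 to 0.62 and from 1.58 to 1.44. Fold changes turned in sign as follows. For NTY in primary follicles, mt-Co1 was 0.22 by RLE, 0.22 by DESeq2, 0.11 with the replicate block and 0.22 with the replicates summed. mt-Nd2 was 0.057, 0.058 and, summed, 0.18. mt-Cytb was -0.0078 with any count, -0.068 with 10 counts in every library and -0.39 by limma, which gave -0.051 for mt-Rnr2. In MII, limma gave 0.23 for mt-Cytb and 0.51 for mt-Atp6. For the stage in sham, mt-Rnr2 was -0.45 by RLE, -0.45 by DESeq2 and -0.012 with the replicates summed.

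Leaving out 1 library at a time gave these ranges where a sign turned. For NTY in primary follicles they were -0.67 to 0.97 for mt-Co1, -0.67 to 0.70 for mt-Cytb, -0.16 to 1.26 for mt-Nd1, -0.017 to 1.60 for mt-Nd6 and -0.82 to 0.67 for mt-Nd2. In MII they were -0.20 to 1.43 for mt-Rnr2, -0.059 to 1.69 for mt-Co1, -0.55 to 1.09 for mt-Cytb, -0.56 to 1.62 for mt-Atp6, -0.55 to 1.28 for mt-Nd1, -0.24 to 1.28 for mt-Nd6 and -0.90 to 0.70 for mt-Tm. For the stage they were -0.19 to 0.59 for mt-Rnr2 and -1.08 to 0.46 for mt-Nd6 in sham, and -0.017 to 1.12 for mt-Co1, -0.50 to 0.50 for mt-Cytb and -0.075 to 0.83 for mt-Nd1 in NTY. For the difference of the NTY effect the range was -1.30 to 0.32 for mt-Nd6.

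The labels do not say whether replicate numbers pair the samples. Deviations of same-numbered libraries correlated at -0.064 to 0.079, which showed no pairing. With the spread between these libraries, a pairing could be missed. With a replicate block 0 mitochondrial genes were called, and in MII mt-Cytb was 0.30, mt-Atp6 0.60 and mt-Tm 0.0071. The spread between replicates limits the tests, with a common dispersion of 3.59 in the microdissected set and 0.542 in MII.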

Other observations

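The balance of the 2 rRNAs varied between libraries of the same group. Per 100 counts of mt-Rnr2 there were 1.93, 4.28 and 4.56 counts of mt-Rnr1 in primordial sham, 3.63, 8.53 and 1.86 in primordial NTY, 6.83, 4.57 and 11.8 in primary sham and 8.26, 3.08 and 6.503 in primary NTY. In MII there were 6.92, 15.9 and 14.7 in sham and 9.97, 16.8 and 22.9 in NTY. NTY replicate 3 of MII was the highest and primordial NTY replicate 3 the lowest of the 18 libraries, and NTY and sham overlapped at every stage.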
